A study of Mus musculus with 25 samples.

Results

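Livers of mice carrying PIK3CA H1047R were compared with livers of empty-vector mice of the same age, 3 months, on 8 of the 25 Illumina bead arrays of the series. The arrays were chosen by their titles: 4 of H1047R liver, labelled as preneoplasia, and 4 of control liver, labelled as normal. All mice were C57BL/6J x 129Sv crosses, and each had been injected with either PIK3CA H1047R or the empty vector. Used beside them were 5 arrays of preneoplastic liver of mice injected with PIK3CA E545K at 3 months, 1 array of preneoplastic H1047R liver at 6 months and 5 arrays of empty-vector liver at 6 months. The labels do not give the route of injection, the promoter that drives the vector, the sex of the mice or whether each array is a separate animal, so p-values measure the spread between these arrays. The design text lists 5 controls at 3 months, of which 4 were analysed here.

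PIK3CA encodes p110-alpha, the catalytic subunit of a phosphoinositide 3-kinase that sits below the insulin receptor. Its lipid product activates AKT, which holds FoxO transcription factors out of the nucleus and, through mTOR, raises the processing of SREBP, the factor that switches on fatty acid and sterol synthesis. In hepatocytes this pathway is known for glucose use, fat synthesis and storage of triglyceride in lipid droplets, and H1047R and E545K are the recurrent cancer mutations of the kinase and helical domains.

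No gene passed the test between H1047R and control liver at 3 months. Of 11594 genes, each read from its brightest probe, 0 had an adjusted p under 0.05 by limma with Benjamini-Hochberg adjustment (0%), and the smallest adjusted p was 0.13, shared by Abcc4 and Gbp11. At an unadjusted p under 0.05 there were 405 genes higher (3.49%) and 407 lower (3.51%), 812 in all. All 4 H1047R arrays were above all 4 control arrays for 215 genes (1.85%) and below them for 225 (1.94%). In the authors' deposited table of the same comparison the smallest adjusted p was 0.186 and 0 probes were under 0.05. The median difference over all genes was 0.01 on the log2 scale, with quartiles at -0.14 and 0.15 and a median SE of 0.18. Every value that follows is therefore a level or a difference that did not pass, unless an adjusted p under the threshold is given with it, and counts of listed genes are to be read against these percentages. Counts of listed genes with arrays left out or with other controls have their own count over all genes, given with them. Levels are log2 of normalized bead signal, and differences are H1047R minus control on that scale.

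Detected probes per array ran from 15691 to 16742. The mean correlation of an array with its own group was 0.977 to 0.982 and with the other group 0.973 to 0.982, so the groups did not separate as wholes. Control replicates 1 and 2 stood apart from the others on the second principal component (24.8 and 23.2, against -20.2 to 4.05 for the other 6 arrays) and had the highest means of 29 acute-phase genes, 11.07 and 10.91 against 9.99 to 10.36. Skeletal muscle markers were uneven in both groups: the mean of 16 such genes was 5.03, 9.78, 5.20 and 6.21 on H1047R replicates 1 to 4 and 5.33, 7.30, 7.45 and 10.56 on control replicates 1 to 4. Acta1, skeletal alpha-actin, gave the lowest difference of all genes, -2.18 (SE 1.64), and reached 11.27 on H1047R replicate 2 and 12.21 on control replicate 4. In bulk liver, fewer cells of a type and less RNA per cell cannot be told apart. The 4 arrays of replicates 1 to 4 are given in that order throughout.

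Lipid droplet genes gave 2 of the 3 highest differences of the comparison. Cidea, a droplet protein that is abundant in brown fat and in fatty liver, was at 11.82, 10.22, 9.65 and 5.46 on the H1047R arrays and at 4.44, 4.60, 4.56 and 4.60 on the control arrays. It was detected on 4 of 4 H1047R arrays and 0 of 4 controls, and was high on 3 of the 4 H1047R arrays and close to background on replicate 4. Against the lowest signal detected on the control arrays it was at least 23.1-fold higher (fitted difference 4.74, SE 1.04, unadjusted p = 0.000954, adjusted p = 0.428). Without H1047R replicate 4 the difference was 6.01 and passed (adjusted p = 0.00127), and without any other single array it did not (adjusted p 0.39 to 0.762).

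Cidec, its relative that fuses lipid droplets, was also highest on H1047R replicate 1 and lowest on replicate 4. Its levels were 8.96, 7.27, 8.03 and 5.85 in H1047R liver and 4.36, 5.24, 5.49 and 4.86 in controls, with no overlap between the groups. The difference was 2.54 (SE 0.54, unadjusted p = 0.000819, adjusted p = 0.428), a 5.81-fold higher signal. With signals not corrected for background the difference was 1.28, and against the 6-month controls 0.86.

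Of 19 lipid droplet and PPAR gamma genes tested, 4 were higher at an unadjusted p under 0.05 and 0 lower, with 2 (Cidea and Cidec) outside the control range on every array. On the higher side were 18 of the 19, and their median difference was 0.45 against 0.01 over all genes. Plin4, a perilipin that coats droplets, was 1.07 higher (SE 0.45, unadjusted p = 0.0366), and Mogat1, which adds a fatty acid to monoacylglycerol, 0.84 higher (SE 0.35, unadjusted p = 0.0349). The groups overlapped for both: Plin4 reached 8.45 on a control array against 7.90 on the lowest H1047R array, and Mogat1 5.18 against 4.78. The count of 4 became 2 without control replicates 1 and 2 (median 0.20), 2 without H1047R replicate 1, and 7 without H1047R replicate 2 and control replicate 4, the arrays with most muscle signal (median 0.67). Over all genes the count of 812 became 606, 619 and 718 at these settings.

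Adipocyte markers overlap this list and were measured beside it. Of 11 tested, 3 were higher at an unadjusted p under 0.05 (Cidea, Cidec and Plin4, all shared with the droplet list), and the mean of the 11 was 7.90, 7.41, 8.56 and 6.83 in H1047R liver and 6.11, 6.86, 6.92 and 6.87 in controls. Adipoq, the adiponectin gene that defines fat cells, was at 4.68, 5.07, 8.60 and 4.59 in H1047R liver and at 4.38, 5.95, 4.66 and 5.36 in controls. It was highest on H1047R replicate 3. On H1047R replicates 1 and 2, where Cidea was highest, it was near background and below control replicates 2 and 4. Leaving out H1047R replicate 3 the Cidec difference was 2.37 and that of Cidea 4.62. The part of fat cells in these values was not tested.

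**Figure D1:**
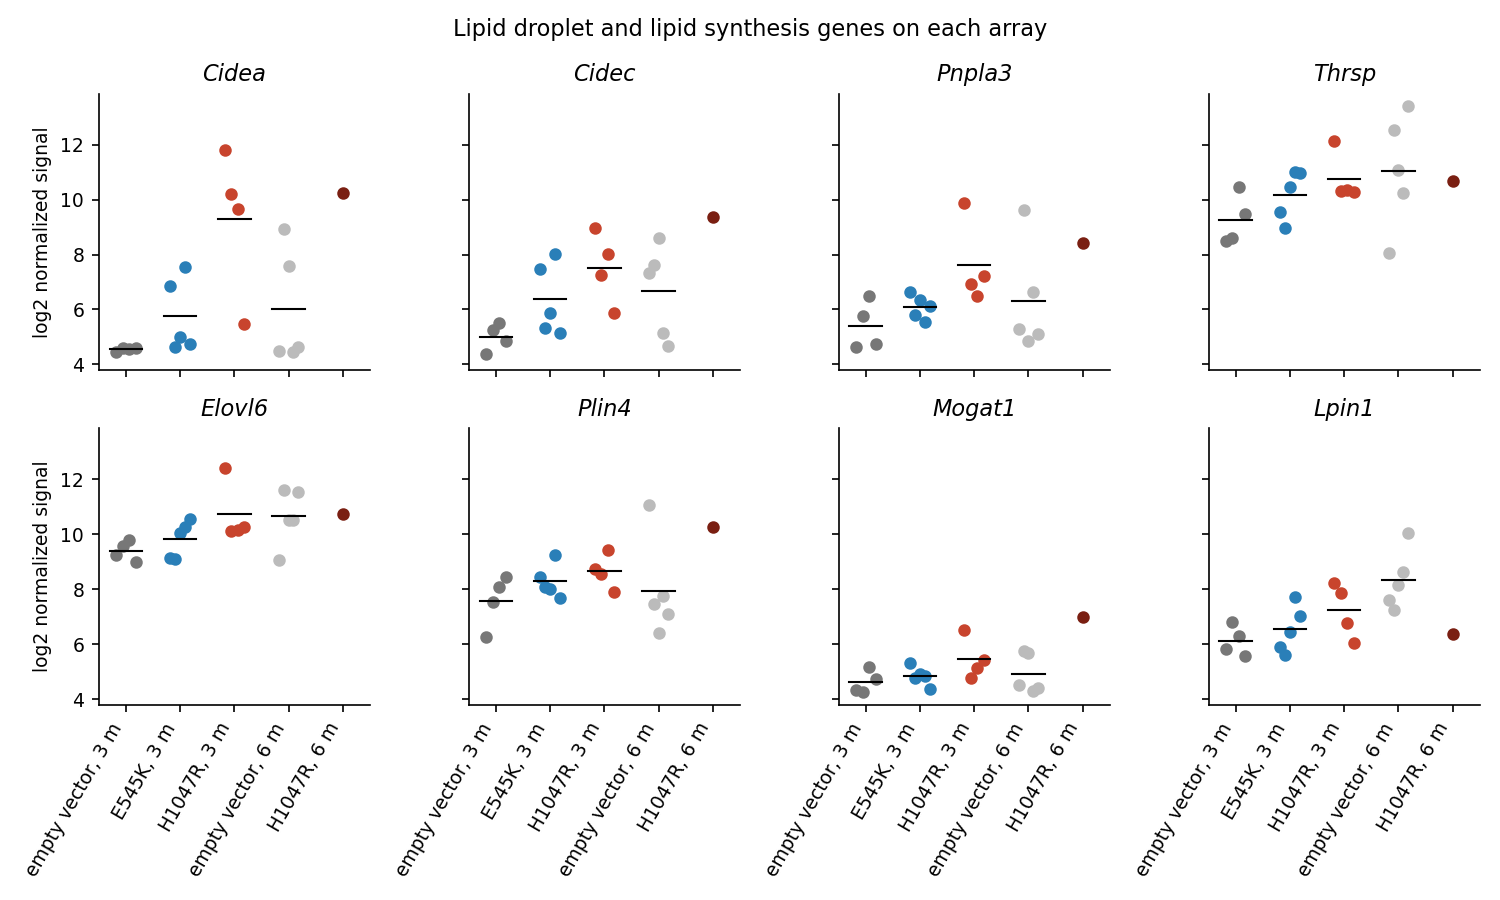
Levels of 8 lipid droplet and lipid synthesis genes, as log2 normalized signal, on each array of 3-month empty-vector, E545K and H1047R liver and of 6-month empty-vector and H1047R liver. Points are arrays and bars are group means. Cidea lies between 5.46 and 11.82 in H1047R liver at 3 months and between 4.44 and 4.60 in its controls.

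Genes of fatty acid synthesis were the next group. Pnpla3, a droplet-bound lipase-like protein driven by SREBP and ChREBP, was at 9.86, 6.91, 6.47 and 7.24 in H1047R liver and 4.64, 5.76, 6.49 and 4.73 in controls. Replicate 1 was the highest array, and 1 control reached the lowest H1047R array. The difference was 2.22 (SE 0.68, unadjusted p = 0.00822, adjusted p = 0.6), and it was 1.47 without H1047R replicate 1 and 1.19 without background correction.

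Elovl6, which elongates palmitate, was at 12.42, 10.13, 10.16 and 10.26 in H1047R liver and 9.25, 9.57, 9.81 and 8.98 in controls. The groups did not overlap, but replicate 1 lay far above the other 3, and the difference of 1.34 (SE 0.46, unadjusted p = 0.0151) became 0.78 without it. Its other detected probe gave 0.06, so the probes disagreed, and against the 6-month controls the brighter probe gave 0.09. Thrsp, a nuclear protein that promotes lipogenesis, had the same shape at 12.13, 10.31, 10.34 and 10.28 against 8.50, 8.60, 10.46 and 9.47 (difference 1.51, SE 0.50). Lpin1, a phosphatidate phosphatase, was 1.12 higher (SE 0.45, unadjusted p = 0.0311), with overlap between the groups.

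Of the 22 lipogenesis genes tested, 4 were higher at an unadjusted p under 0.05 (Pnpla3, Thrsp, Elovl6 and Lpin1), 0 lower, and 17 lay on the higher side. Their median difference was 0.36. It was 0.12 without H1047R replicate 1, 0.06 without control replicates 1 and 2, when 1 of the 22 was under 0.05, and 0.01 against the 6-month controls, when 0 were. Over all genes, 606 were under 0.05 without control replicates 1 and 2 and 1068 against the 6-month controls, compared with 812.

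The bases before the start sites of the genes that led these groups are shown because SREBP, FoxO and nuclear receptors act on such regions. They are the 250 bases upstream of the RefSeq start on GRCm38.p6, 5′ to 3′ on the gene's strand. Capitals mark matches on either strand to 5 motifs: AGGTCA (nuclear receptor half-site), CACGTG (E-box), GTAAACA (FoxO element), TCACNCCAC (sterol regulatory element) and TGACNNNGC (antioxidant response element). No 2 matches overlapped in these windows. Cidec lies on chromosome 6 (chr6:113435761-113436010, minus strand, the first of 2 RefSeq starts), Pnpla3 on chromosome 15 (chr15:84167566-84167815, plus strand) and Elovl6 on chromosome 3 (chr3:129532136-129532385, plus strand). Cidea is named only.
Cidec: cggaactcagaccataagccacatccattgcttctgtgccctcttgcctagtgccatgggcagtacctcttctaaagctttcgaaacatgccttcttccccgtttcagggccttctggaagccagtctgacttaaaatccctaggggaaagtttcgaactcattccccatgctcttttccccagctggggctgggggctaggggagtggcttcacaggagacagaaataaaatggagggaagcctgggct
Pnpla3: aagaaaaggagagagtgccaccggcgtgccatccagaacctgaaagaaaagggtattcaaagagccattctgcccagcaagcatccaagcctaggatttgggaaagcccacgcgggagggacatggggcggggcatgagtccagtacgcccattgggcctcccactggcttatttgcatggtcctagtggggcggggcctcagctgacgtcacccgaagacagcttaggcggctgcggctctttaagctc
Elovl6: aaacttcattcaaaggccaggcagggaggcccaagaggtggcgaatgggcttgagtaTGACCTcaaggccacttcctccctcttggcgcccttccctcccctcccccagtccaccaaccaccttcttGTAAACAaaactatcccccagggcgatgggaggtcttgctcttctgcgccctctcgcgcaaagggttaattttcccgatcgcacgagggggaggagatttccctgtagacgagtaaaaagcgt
Elovl6 held AGGTCA, on the reverse strand as TGACCT, and GTAAACA, while the Cidec and Pnpla3 windows held none of the 5. Over 32851 promoter windows of the same length AGGTCA occurred in 14.0%, CACGTG in 6.02%, GTAAACA in 3.17%, TCACNCCAC in 1.05% and TGACNNNGC in 10.2%. A match is a description of these letters and not a binding site.

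The sterol branch of the same SREBP family lay on the other side. Idi1, the isomerase of isopentenyl diphosphate, was at 7.36, 6.76, 7.26 and 7.47 in H1047R liver and at 8.76, 8.97, 7.93 and 7.70 in controls. The groups did not overlap, and the highest values were on control replicates 1 and 2. The difference was -1.13 (SE 0.29, unadjusted p = 0.00267, adjusted p = 0.521). Of 23 cholesterol synthesis and uptake genes 3 were lower at an unadjusted p under 0.05 and 0 higher, and 18 lay on the lower side, with a median of -0.16. The others were Nsdhl, a sterol dehydrogenase (-0.51, SE 0.22, with -0.06 to 0.12 on its other probes), and Sc5d, a sterol desaturase, which was not detected on any H1047R array and was at least 1.19-fold lower. Without control replicates 1 and 2 the median of the list was 0.04.

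Of 26 PPAR alpha and fatty acid oxidation genes 1 was higher at an unadjusted p under 0.05 and 0 lower, and the median was 0.21. The means of the list were 9.78, 9.54, 9.65 and 10.14 in H1047R liver and 9.15 and 9.25 on control replicates 1 and 2, while control replicates 3 and 4, at 9.92 and above, exceeded 3 of the 4 H1047R arrays. Without control replicates 1 and 2 the median was -0.11 and 0 of 26 were under 0.05, when 606 of all genes were. The member was Ppara, the receptor that drives this programme, at 6.11, 6.92, 6.12 and 6.73 in H1047R liver and 5.79, 5.82, 5.86 and 6.05 in controls. The groups did not overlap, and the difference was 0.59 (SE 0.20, unadjusted p = 0.014). Pex11a, a peroxisome division factor and PPAR alpha target outside that list, was at 11.83, 11.90, 11.77 and 11.74 against 11.01, 10.90, 11.19 and 11.42. Its difference was 0.68 (SE 0.14, unadjusted p = 0.000705), the narrowest spread within H1047R liver among the 12 genes of the higher side that the naming rule gave (SD 0.07).

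Glycolysis and the pentose phosphate pathway, which supplies NADPH for fat synthesis, were examined as 1 list. Rpia, the ribose phosphate isomerase, was at 7.68, 7.14, 7.32 and 7.53 in H1047R liver and at 6.44, 6.64, 6.79 and 6.46 in controls. All 4 H1047R arrays lay above the highest control, and the difference was 0.84 (SE 0.16, unadjusted p = 0.000297, adjusted p = 0.428). Of 24 genes of glycolysis and the pentose phosphate pathway 5 were higher and 1 lower at an unadjusted p under 0.05, and 4 did not overlap, all higher. Taldo1, transaldolase, was 0.43 higher (SE 0.12, unadjusted p = 0.00579), Pgd, the phosphogluconate dehydrogenase, 0.43 higher (SE 0.16), and Pklr, liver pyruvate kinase, 0.85 higher (SE 0.33). The count of 5 higher was 1 without control replicates 1 and 2, when the count over all genes, in either direction, fell from 812 to 606.

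NRF2 targets, the genes of the antioxidant and conjugation response, held the gene of smallest p on the higher side. Abcc4, an efflux pump for organic anions and bile acids, was at 5.76, 6.04, 5.52 and 5.74 in H1047R liver and 4.76, 4.73, 4.75 and 4.80 in controls. The control arrays were nearly equal and close to background (detected on 2 of 4), and each H1047R array was clearly above them. The difference was 1.01 (SE 0.14, unadjusted p = 2.23e-05, adjusted p = 0.13), and 0.31 without background correction. Cbr3, a carbonyl reductase, was at 7.86, 6.83, 6.31 and 5.50 against 5.25, 4.55, 5.06 and 5.30 (difference 1.58, SE 0.41, unadjusted p = 0.00312). Its groups did not overlap, and replicate 4 was again the lowest H1047R array.

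Of 20 NRF2 targets tested, 5 were higher at an unadjusted p under 0.05, 0 lower and 18 on the higher side, with a median of 0.35. Nqo1, the quinone reductase often used to read this pathway, was only 0.41 higher (SE 0.13, unadjusted p = 0.00901) at 5.14 on average, near background. Cyp2a5, a P450 with close paralogs that a probe may not separate, was 0.98 higher (SE 0.35) with overlap between the groups. Without control replicates 1 and 2 the count was 2 of 20 and the median 0.11, when 606 of all genes were under 0.05 against 812. The 250 bases before the first of 2 RefSeq starts of Abcc4 (chromosome 14, chr14:118706220-118706469, minus strand) are given with the same capitals.
Abcc4: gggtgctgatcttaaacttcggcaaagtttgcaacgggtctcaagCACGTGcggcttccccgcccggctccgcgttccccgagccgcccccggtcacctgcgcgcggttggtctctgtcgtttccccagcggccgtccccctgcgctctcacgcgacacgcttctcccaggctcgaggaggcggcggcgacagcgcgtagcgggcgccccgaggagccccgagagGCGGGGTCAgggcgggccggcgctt
They held CACGTG and, on the reverse strand, TGACNNNGC.

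The other genes of the higher side that the naming rule gave have varied roles. Klf2, a transcription factor of endothelial cells under flow, was at 6.998, 6.86, 6.53 and 6.97 against 6.03, 5.68, 6.14 and 5.52 in controls (difference 0.997, SE 0.18, unadjusted p = 0.000184). Vim, the intermediate filament of mesenchymal cells, was at 5.67, 5.25, 5.49 and 5.29 against 4.82, 4.57, 4.65 and 4.49, where it was detected on 1 of 4 arrays. Neither gene's groups overlapped, and both had an adjusted p of 0.428. Serinc2, of the serine incorporator family, was 1.25 higher (SE 0.27), with 0.24 on its other detected probe. Acnat2, a peroxisomal acyltransferase, was 1.18 higher (SE 0.23), and Arrdc3, an arrestin-domain protein that controls receptor turnover, 0.92 higher (SE 0.19). Csrp1, a LIM protein of the actin cytoskeleton, was 0.88 higher (SE 0.17), Pcmtd1 0.77 (SE 0.14) and Itpripl2 0.63 (SE 0.13). For Pcmtd1 the other detected probes gave 0.22 and -0.01.

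On the lower side the gene of smallest p was Gbp11, of the interferon-inducible guanylate-binding proteins. It was at 4.53, 4.68, 4.99 and 4.79 in H1047R liver, detected on 2 of 4 arrays, and at 5.98, 5.88, 5.70 and 5.83 in controls. The groups were far apart relative to their spread, and the difference was -1.10 (SE 0.14, unadjusted p = 1.19e-05, adjusted p = 0.13), or -0.35 without background correction. Dnmt3b, a DNA methyltransferase, was at 6.90, 6.68, 7.28 and 7.53 against 8.09, 8.50, 7.76 and 8.37 (difference -1.08, SE 0.22). Plk3, a stress-activated polo-like kinase, was at 9.54, 10.02, 9.25 and 9.31 against 10.37, 10.69, 10.29 and 10.64 (difference -0.97, SE 0.19).

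Got1, the cytosolic aspartate aminotransferase, was -0.80 (SE 0.17), and Apon, an apolipoprotein, -0.77 (SE 0.16). Slc30a1, the zinc exporter of the plasma membrane, was at 5.99, 5.82, 5.89 and 5.75 against 6.68, 6.61, 6.76 and 6.22 (difference -0.71, SE 0.15). Rell1, a relative of the TNF receptor RELT, was -0.75 (SE 0.14), Hps5, a subunit of a complex for lysosome-related organelles, -0.66 (SE 0.14), and Prkar2a, a regulatory subunit of protein kinase A, -0.61 (SE 0.13). Msl2, a ubiquitin ligase of a histone acetylation complex, was -0.88 (SE 0.18), but its other detected probes gave -0.05 and -0.00, and that of Hps5 gave -0.08. Lrit1, a leucine-rich repeat protein, was -0.91 (SE 0.21). Zfp280c, a zinc finger protein, was below detection on all H1047R arrays and at least 1.36-fold lower. Each of these 12 had an adjusted p of 0.13 to 0.428.

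The H1047R liver of 6 months and its 5 controls share no array with the 3-month comparison, and with 1 array there is no test. Of the 12 genes named on the higher side 8 were also higher there than the mean of the 6-month controls, where 52% of all genes were, and of the 12 on the lower side 9 were also lower, where 48% were. Cidea was at 10.23 at 6 months against 4.44 to 8.93 on its controls, and Cidec at 9.37 against 4.66 to 8.59. Abcc4 was at 6.44 against 5.05 to 5.32, and Slc30a1 at 4.72 against 6.04 to 6.64. These 4 genes were outside the range of all 5 controls in the direction seen at 3 months. Itpripl2 (6.66 against 5.24 to 5.76), Serinc2 (7.60 against 5.60 to 7.03) and Idi1 (6.82 against 7.27 to 8.48) were as well, as were Rell1 (7.29 against 7.35 to 9.86), Prkar2a (4.67 against 4.90 to 5.45) and Cbr3 (6.03 against 4.94 to 5.66). Klf2, at 5.28 against 6.08 to 7.14, Lpin1, at 6.39 against 7.24 to 10.05, Nqo1, at 4.72 against 4.89 to 6.04, and Lrit1, at 7.32 against 5.87 to 6.84, were outside the range in the other direction. Thrsp, Elovl6, Pnpla3 and Plin4 lay within the range of the 6-month controls, which spread widely. Other genes of the text were outside that range in either direction, so these are examples and not a complete list. The share of all genes outside it was not counted, so the number of such genes has nothing to be read against.

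**Figure D2:**
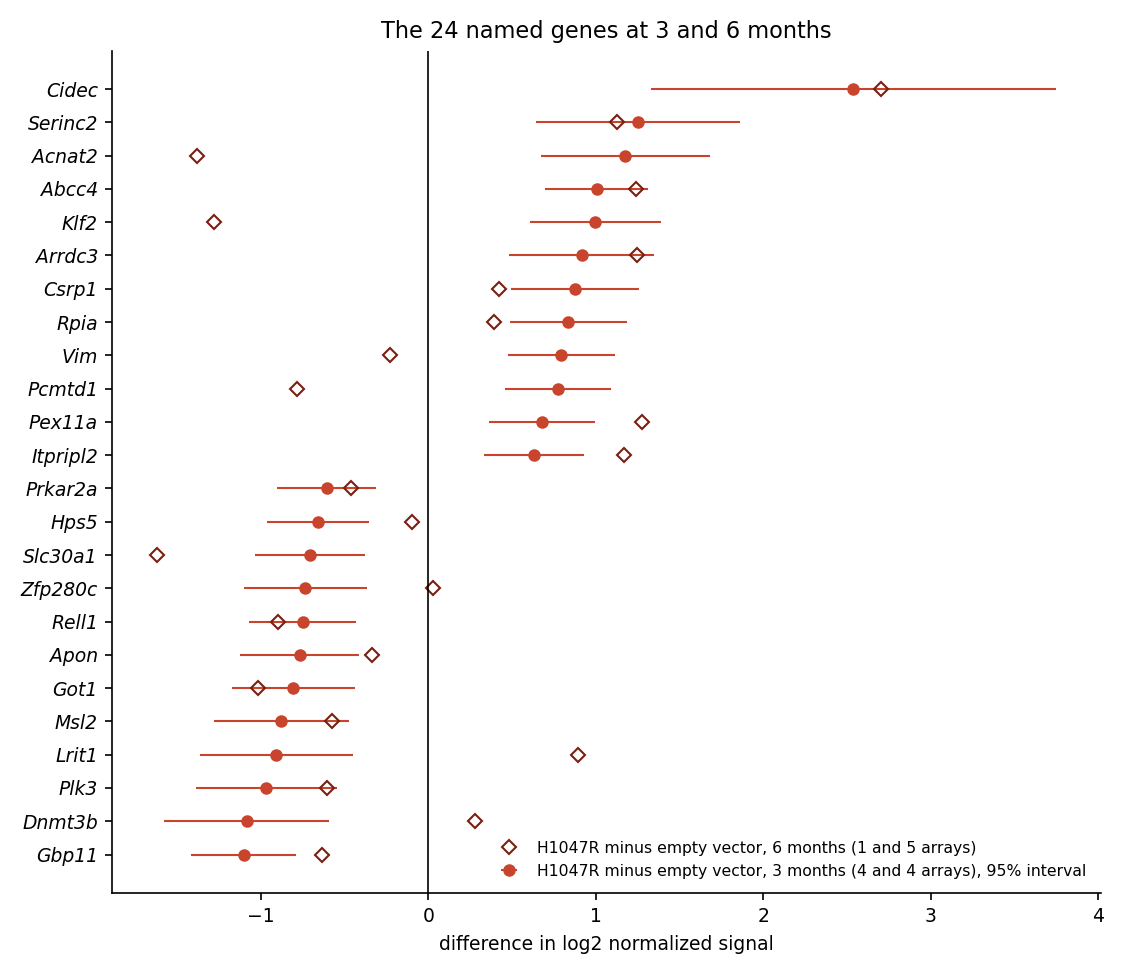
Differences in log2 normalized signal between H1047R and empty-vector liver for the 12 genes of the higher side and the 12 of the lower side given by the naming rule. Filled points are the 3-month comparison with its 95% interval, for 4 and 4 arrays, and open diamonds the single 6-month H1047R array minus the mean of 5 controls; Acnat2, Klf2, Vim and Pcmtd1 lie on opposite sides of 0 at the 2 ages, as do Dnmt3b, Lrit1 and Zfp280c.

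Pik3ca, the mouse gene of the injected kinase, was at 4.76, 4.89, 4.66 and 4.53 in H1047R liver and 4.35, 4.53, 4.77 and 4.46 in controls, near background and detected on 2 of 4 and 1 of 4 arrays. The difference was 0.18 (95% interval -0.14 to 0.50, unadjusted p = 0.236). The labels do not say whether this mouse probe reads the injected sequence, so it checks neither the vector nor the labels. Of 27 PI3K-AKT-mTOR genes 1 was higher at an unadjusted p under 0.05 and 0 lower, and the median was 0.01. That gene, Ddit4, an inhibitor of mTOR induced by stress, was at 7.46, 7.04, 7.34 and 7.10 against 6.92, 6.56, 6.88 and 6.81, with no overlap (difference 0.44, SE 0.15).

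Genes of glucose output and others that FoxO1 regulates had 1 of 20 higher and 1 lower and a median of 0.07. Bcl6, a repressor of transcription, was at 11.11, 11.26, 9.40 and 10.07 against 9.51, 9.82, 9.36 and 9.02 (difference 1.03, SE 0.38), high on replicates 1 and 2. Selenop, the selenium carrier of plasma, was -0.40 (SE 0.15), with 0.31 on its other probe. In the growth hormone and IGF axis 1 of 17 was higher and 1 lower. Cish, a feedback inhibitor induced by growth hormone, was at 7.54, 7.59, 9.94 and 9.79 against 10.22, 9.87, 10.02 and 10.14 (difference -1.35, SE 0.52), low on the same replicates 1 and 2. Igf2, a fetal growth factor, was 0.76 higher (SE 0.27, unadjusted p = 0.0186).

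Of the clock genes, 1 was likewise apart on H1047R replicates 1 and 2. Rgs16, a regulator of G protein signals with a strong daily rhythm in liver, was at 10.25, 9.84, 6.59 and 6.28 in H1047R liver and 5.52, 4.76, 5.23 and 5.59 in controls. Replicates 1 and 2 were more than 3 log2 units above replicates 3 and 4, which were themselves above every control (difference 2.96, SE 0.82, unadjusted p = 0.00444). Bhlhe40 and Per2, repressors of the clock, were 0.69 (SE 0.20) and 0.84 higher (SE 0.28), both without overlap. These 3 of 18 clock genes were the ones under an unadjusted p of 0.05, and the median was 0.10. Against the 6-month controls it was -0.44 and all 3 lay on the lower side. On the H1047R array of 6 months Rgs16 was at 12.15, above all of those controls (8.14 to 10.63). The labels give no hour of collection, so the part of that hour in these values was not tested.

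Immediate early genes, which respond to acute stimuli, had 4 of 27 higher and 1 lower, with a median of 0.15. Besides Klf2 the named members were Jund, a subunit of AP1 (0.57, SE 0.19), and Gadd45g, a stress-response gene, at 9.48, 10.36, 9.98 and 11.75 against 11.51, 11.76, 11.60 and 12.01 (difference -1.33, SE 0.40). Gadd45g overlapped only through H1047R replicate 4.

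Mature hepatocyte markers lay on both sides of control liver, 11 of 25 higher and 14 lower. Alb, albumin, was at 9.06, 8.98, 9.37 and 9.79 against 9.76, 10.35, 9.97 and 10.53 (difference -0.85, SE 0.22, unadjusted p = 0.00314). Only H1047R replicate 4 reached the lowest control. Serpinc1, antithrombin, was -0.49 (SE 0.15) and Serpina1a, an antitrypsin with close paralogs, -0.50 (SE 0.16), both without overlap, although the other probe of Serpinc1 gave 0.07. These were the 3 of 25 mature hepatocyte markers under an unadjusted p of 0.05, all lower, while the median of the list was -0.04. The means of the list were 11.54 to 11.71 in H1047R and 11.69 to 11.80 in control liver, so both groups carried the hepatocyte programme. Among 23 periportal genes 1 was higher and 3 lower, with a median of -0.08; Agxt, which detoxifies glyoxylate, was -0.54 (SE 0.17) and Aass, of lysine breakdown, -0.62 (SE 0.20).

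Of 29 acute-phase genes 1 was lower at an unadjusted p under 0.05, Fgb, the fibrinogen beta chain (-0.85, SE 0.28), and the median was -0.11. Its probe gave a low signal for this list, whose means were 9.99 to 11.07. Fgb was at 5.59, 5.04, 4.82 and 6.25 in H1047R liver and 6.06, 6.34, 6.53 and 6.16 in controls, with overlap. Saa1, a serum amyloid named after its values were seen, was at 14.19 on control replicates 1 and 2 and at 9.45 and 9.96 on 3 and 4, and at 11.42, 10.50, 10.40 and 9.03 in H1047R liver. The control group thus fell into 2 levels, H1047R replicates 1 to 3 lay between them and replicate 4 below both, and the difference of -1.61 (SE 1.06) became 0.64 without those 2 controls.

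Markers of dividing cells and of tumours were examined next. Of 30 proliferation genes 3 were higher at an unadjusted p under 0.05 and 0 lower, with a median of 0.10. Cdkn3, a phosphatase of cyclin-dependent kinases, was at 5.62, 5.28, 5.60 and 5.20 against 4.79, 4.46, 4.67 and 4.97 (difference 0.70, SE 0.16, unadjusted p = 0.00123), and Birc5, survivin, was 0.45 higher (SE 0.14), with -0.11 on its other probe. Neither gene's groups overlapped, but the controls of both were near background, at 4.46 to 4.97 for Cdkn3 and 4.54 to 5.00 for Birc5. Kif23, a kinesin of cytokinesis, was 0.57 higher (SE 0.19). Of 23 oncofetal and tumour marker genes 1 was higher, Igf2, and 1 lower, Tspan8, a tetraspanin of epithelial cells, at 4.49, 4.76, 4.41 and 4.96 against 6.55, 5.37, 5.25 and 5.43 (difference -0.996, SE 0.27). The H1047R levels of Tspan8 were near background. Afp, alpha-fetoprotein, was not detected on any of the 8 arrays.

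Most lists of non-parenchymal markers lay mainly on the higher side. There were 19 of 26 stellate cell and matrix, 19 of 23 macrophage and 9 of 11 lymphocyte and neutrophil markers. Cholangiocyte and progenitor markers lay on both sides, 7 of 13 higher and 6 lower, with a median of 0.02. Of 22 endothelial markers 3 were higher at an unadjusted p under 0.05, all 3 without overlap, 18 lay on the higher side, and the median was 0.22. Eng, endoglin, was at 8.42, 8.67, 8.55 and 8.64 against 8.15, 8.26, 7.98 and 8.33 (difference 0.39, SE 0.13), Vwf, von Willebrand factor, was 0.54 higher (SE 0.18) and Gpihbp1, which holds lipoprotein lipase on capillaries, 0.36 higher (SE 0.13), with 0.08 on its other probe. Eng and Gpihbp1 were also above all 5 controls at 6 months, at 8.93 and 9.49, and Vwf was barely so, at 7.485 against at most 7.467. The mean of the list was 7.38 to 7.60 in H1047R and 7.15 to 7.40 in control liver. Its count was 1 of 22 without control replicates 1 and 2, when 606 of all genes were under 0.05 against 812. Of 26 stellate cell and matrix markers 2 were higher, Vim and Timp1, an inhibitor of matrix proteases that was detected on 0 of 4 control arrays and was at least 1.21-fold higher (fitted difference 0.52, SE 0.19), and the median was 0.17.

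Of 23 macrophage markers 2 were higher, Fcer1g (0.67, SE 0.21) and C1qc (0.87, SE 0.38), which encode an Fc receptor chain and a complement subunit. The mean of the list was 7.56, 7.41, 6.54 and 6.73 in H1047R liver and 7.41, 6.58, 6.71 and 6.57 in controls, so the groups overlapped. Lymphocyte and neutrophil markers had a median of 0.09 over the 11 of 29 tested, and their means overlapped, at 4.70 to 5.27 and 4.68 to 4.79. Of 13 cholangiocyte and progenitor markers 1 was lower, Krt18, a keratin that hepatocytes also express, at 10.31, 10.32, 10.32 and 10.26 against 10.84, 10.98, 10.56 and 10.64 (difference -0.46, SE 0.13). For none of these lists was their part in the other results tested.

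In the 15 other lists examined (sex-biased genes, glycogen, bile acids, P450s, pericentral genes, the unfolded protein response, interferon response, respiratory chain, lysosome, ribosomal proteins, one-carbon metabolism, antigen presentation, exocrine pancreas and erythroid cells) 0 to 2 members were higher and 0 to 2 lower at an unadjusted p under 0.05. Their medians lay between -0.09 and 0.19.

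**Figure D3:**
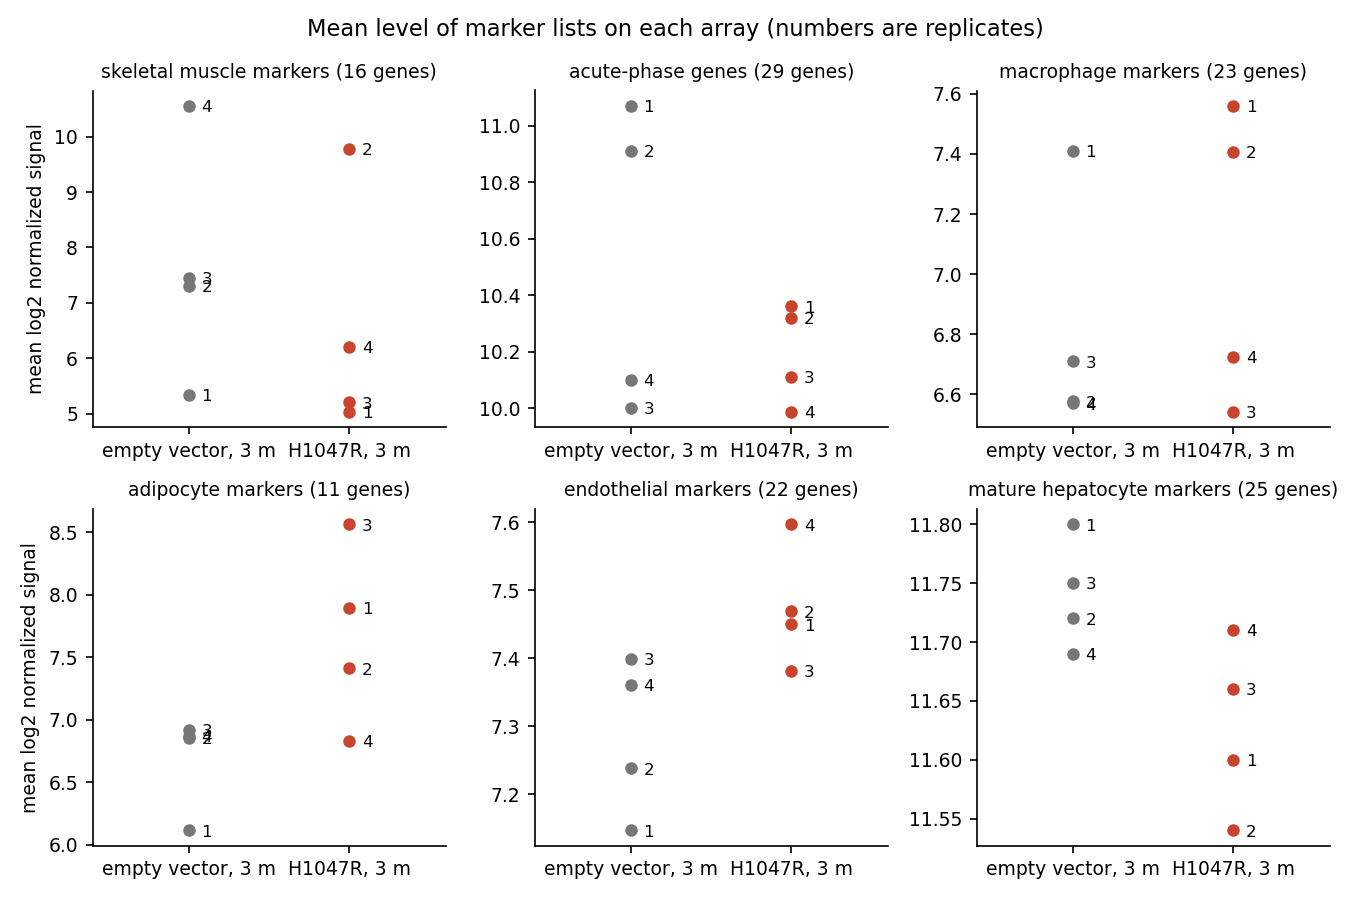
Mean log2 normalized signal of 6 marker lists on each of the 4 empty-vector and 4 H1047R arrays of 3 months, with the replicate number beside each point. Muscle markers are highest on H1047R replicate 2 and control replicate 4, acute-phase genes on control replicates 1 and 2, and adipocyte markers on H1047R replicate 3; the vertical axes differ between panels and do not start at 0.

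**Figure D4:**
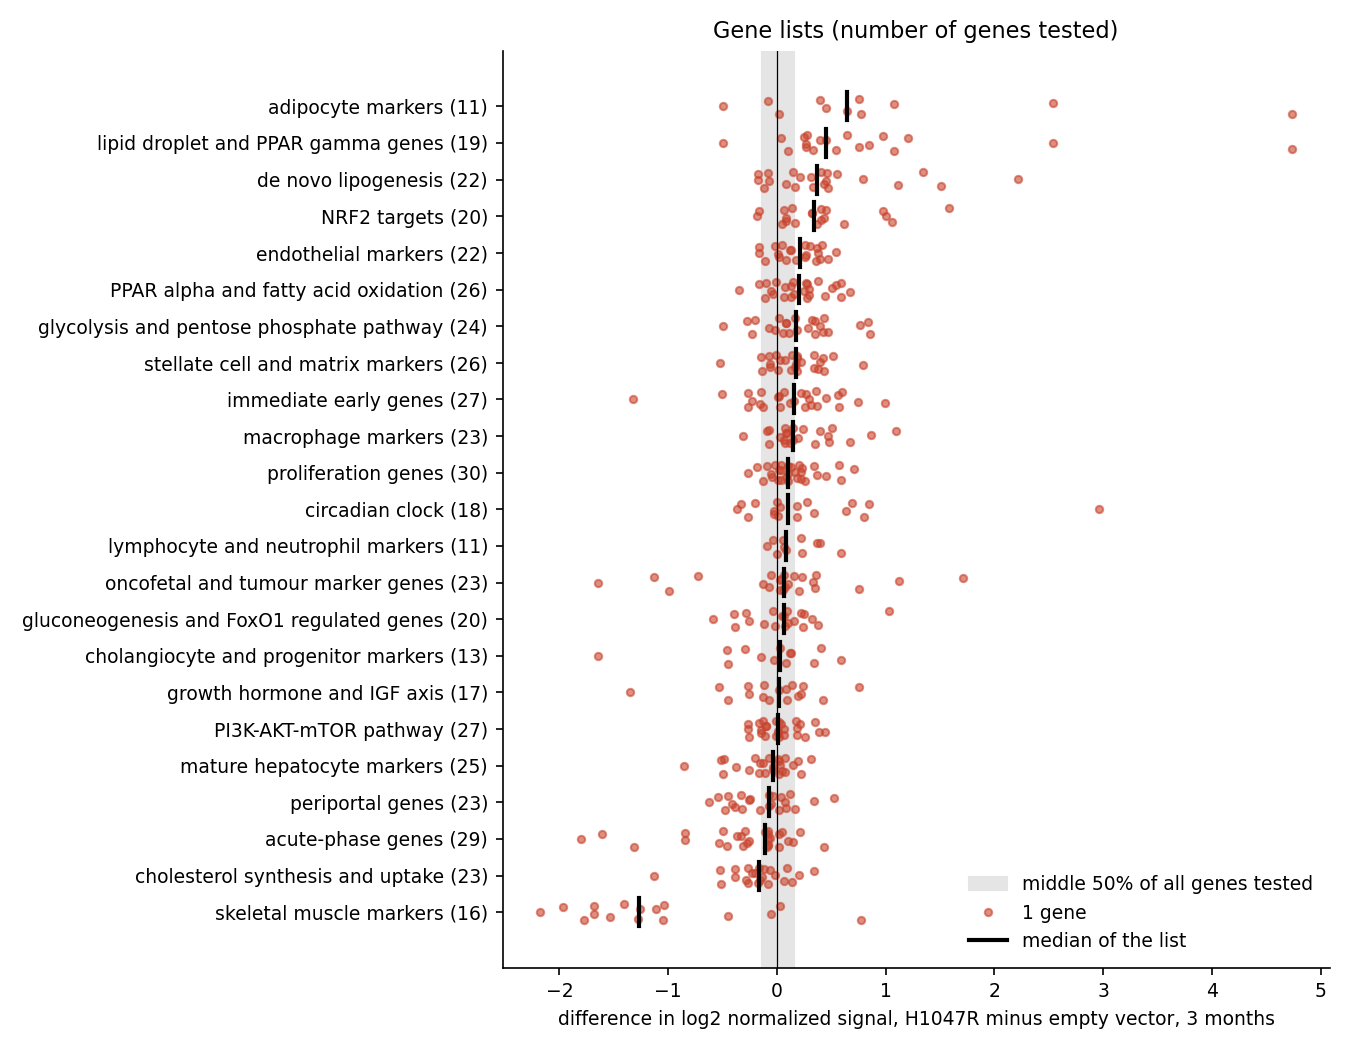
Differences in log2 normalized signal, H1047R minus empty vector at 3 months, for every tested gene of the 23 lists described, sorted by their medians. Dots are genes, black bars list medians and the grey band the range between the quartiles of all genes, -0.14 and 0.15. The adipocyte (0.645), lipid droplet (0.45), lipogenesis (0.36) and NRF2 lists (0.35) have the highest medians of the 23, and the muscle list (-1.27) the lowest.

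The E545K livers of 3 months were compared with the same 4 controls, and values of both mutations against shared controls are not independent. There 1 gene passed in E545K liver (0.00863%): Apoa4, an apolipoprotein of triglyceride-rich particles, with -1.83 (SE 0.20, adjusted p = 0.0167). In H1047R liver Apoa4 was at 13.54, 10.52, 10.18 and 10.23 against 12.03, 11.70, 11.88 and 11.77 in controls. Replicates 2 to 4 were below every control and replicate 1 above all of them, so the difference was -0.73 (SE 0.63), and without replicate 1 it was -1.53 and passed (adjusted p = 0.0309). The H1047R liver of 6 months resembled replicate 1, with 13.88 against 10.49 to 12.04 on its controls. Cidea was 1.20 higher in E545K liver than in controls and Cidec 1.38, against 4.74 and 2.54 in H1047R liver, and Cbr3 was -0.04 against 1.58. Dnmt3b was -1.03 in E545K liver against -1.08 in H1047R liver, Ppara 0.59 in both, Abcc4 0.73 against 1.01 and Rpia 0.59 against 0.84. Arrdc3 was 1.61 against 0.92, and Rgs16 was at 6.10 to 11.01 on the E545K arrays, above every control. Csrp1 (0.09), Acnat2 (0.10), Hps5 (0.02) and Prkar2a (0.12) lay near control in E545K liver.

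Set directly against E545K liver, 0 of 11594 genes passed in H1047R liver (0%, smallest adjusted p 0.671), with 391 higher (3.37%) and 322 lower (2.78%) at an unadjusted p under 0.05. Cidea was 3.54 higher in H1047R than in E545K liver (SE 1.10, unadjusted p = 0.00826), where it was 4.62 to 7.55 on the 5 arrays, so the groups overlapped through H1047R replicate 4. Cbr3 was 1.62 higher (SE 0.37, unadjusted p = 0.00111) and above all 5 E545K arrays, which lay at 4.78 to 5.32. Pnpla3 was 1.54 higher (SE 0.57, unadjusted p = 0.0212), Csrp1 0.79 (SE 0.20, unadjusted p = 0.00232), Eng 0.47 (SE 0.12, unadjusted p = 0.0022) and Klf2 0.74 (SE 0.25, unadjusted p = 0.0129). Slc30a1 was -0.55 (SE 0.15), Prkar2a -0.73 (unadjusted p = 0.000586), Tspan8 -0.92 (SE 0.22), Alb -0.64 (SE 0.20) and Arrdc3 -0.69 (SE 0.21). The Cidec difference was 1.16 (SE 0.71, unadjusted p = 0.129).

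In the direct comparison 7 of 26 stellate cell and matrix markers and 4 of 23 macrophage markers were higher in H1047R than in E545K liver at an unadjusted p under 0.05 and 0 lower, with medians of 0.36 and 0.41. Against controls the medians of these lists were -0.175 and -0.246 in E545K liver and 0.17 and 0.14 in H1047R liver. On these medians E545K liver thus lay below control liver. Higher with 0 lower were also 5 of 30 proliferation genes, 4 of 27 PI3K-AKT-mTOR genes, 4 of 27 immediate early genes, 3 of 24 genes of glycolysis and the pentose phosphate pathway and 3 of 22 endothelial markers. Lower with 0 higher were 4 of 25 mature hepatocyte markers and 3 of 23 cholesterol genes. Of the lipid lists 1 of 22 lipogenesis and 1 of 19 droplet genes were higher, and of the NRF2 targets 3 of 20. The circadian list had 2 of 18 higher and 5 lower, and the oncofetal list 3 of 23 higher and 1 lower. None of these members passed after adjustment over all genes.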

How the data were processed

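RNA of the 25 mouse samples had been extracted with Trizol and an RNeasy column and labelled as biotinylated cRNA for Illumina arrays, per the labels' protocols. The authors deposited non-normalized bead intensity and a detection p-value per probe, processed intensity, and log2 fold changes with p-values, per the file headers; the processed values are on a linear scale with nearly equal quantiles on each array, as read from the values, and the array type and the scanner software were not stated there. From the non-normalized signals of all 25 arrays, neqc (limma 3.58.1, R 4.3.3, offset 16) gave background-corrected, quantile-normalized log2 values. A detection p under 0.05 was required on 4 or more of the arrays, which 20349 probes met. Symbols came from the deposited table, updated by gene number for 658 of 33778 probes with a symbol (11503 had none), and each gene was read from its brightest probe, which left 11594 genes, 3907 of them with several probes. Groups were taken from the titles. limma's lmFit and eBayes ran on the 8 arrays of the comparison, with Benjamini-Hochberg adjustment over all genes and a threshold of 0.05, and had been tested on simulated data. "Not overlapping" means that every array of a group lies above every array of the other. Folds against a group below detection use the lowest detected signal of each array. Promoters are RefSeq's (GRCm38.p6). Figures used matplotlib 3.10.9.

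The comparison, the gene lists and the marker lists were chosen with earlier results of these data known. Named genes are those that pass with groups that do not overlap, up to 12 a side, filled up with the smallest unadjusted p among genes without overlap, with a fold of at least 1.5 and detected on all arrays of the higher group. Up to 4 members of each list by p, and Pik3ca, were added. Acta1, Adipoq, Afp, Saa1, Apoa4 and Gnai1 were named after their values were seen. The number of arrays limits the precision. The fit had no replicate block.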

Additional observations from a re-analysis of the deposited data

Results flagged for a closer look

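In groups of 4 arrays, an array was noted when its gap to the nearest other, divided by the range of its group, was above Dixon's 95% critical value. Of 200 groups of values examined, for 77 genes and 23 list means, 7 were noted, where chance gives about 1 in 20. H1047R replicate 1 was the highest array for Elovl6 at 12.42 (next 10.26), for Thrsp at 12.13 (next 10.34) and for Apoa4 at 13.54 (next 10.52). H1047R replicate 3 was the highest for Adipoq at 8.60 (next 5.07). Control replicate 1 was the highest for Tspan8 at 6.55 (next 5.43) and for the mean of the macrophage markers at 7.41 (next 6.71), and the lowest for the mean of the adipocyte markers at 6.11 (next 6.86).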

How the results depend on the processing

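The count of genes called between H1047R and control liver was 0 under every alternative except 2 that left out an array, so it ran from 0 to 2 when arrays were left out in turn: without H1047R replicate 1 the gene was Apoa4, and without replicate 4 the genes were Cidea and Gnai1, a G protein subunit (1.53, adjusted p = 0.0169). The titles number the replicates of both groups, but deviations of same-numbered arrays correlated by -0.07 to 0.22, against -0.36 to 0.37 for other pairs, and 0 of 4 correlated best with their own number. With the replicate block 0 genes were called and 920 had an unadjusted p under 0.05; a count without overlap has no such fit. That unadjusted count of 812 became 447 with all 25 arrays in a single fit and 1409 with every probe on its own, which also gave 768 non-overlapping features against 440. The non-overlapping count was 720 without the detection filter. With fewer arrays to separate it was 709 to 1155 when each array was left out in turn, 1597 without control replicates 1 and 2, and 1279 without H1047R replicate 2 and control replicate 4, an alternative chosen after seeing the data. For E545K against control the count of 1 became 0 in the single fit, without the filter and with the block, 2 with every probe on its own and with trend and robust, 3 with array weights, and 0 to 1 when arrays were left out. The direct comparison of the mutations gave 0 throughout.

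Of 1613 values of the 77 genes under alternatives 17 changed sign, 15 of them against the 6-month controls: Pcmtd1 -0.058, Acnat2 -0.42, Dnmt3b 0.35, Lrit1 0.047, Pik3ca -0.29, Thrsp -0.30, Lpin1 -1.11, Pklr -0.027, Nqo1 -0.17, Rgs16 -1.09, Bhlhe40 -0.26, Per2 -0.57, Gadd45g 0.12, Agxt 0.025 and Acta1 1.48. Those controls differ from the H1047R livers in age, so age and mutation cannot be told apart there. The others were Saa1, 0.64 without control replicates 1 and 2, and Adipoq, -0.31 without H1047R replicate 3 and up to 1.03 without other arrays. Low genes near background, such as Abcc4, Gbp11 and Cidec, had smaller differences without background correction.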
